A study of Mus musculus with 8 samples.

Results

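Stretches of the mouse genome with 4 or more c-Jun peaks close together were examined in epiblast stem cells (EpiSCs). The members were selected on the positions of the EpiSC peaks alone. Peaks were sorted along each chromosome, neighbours with at most 12500 bp between them were joined, and joined stretches with at least 4 peaks were kept. This gave 519 stretches with 2726 member peaks, which is 16.9% of the 16166 EpiSC c-Jun peaks (95% Wilson interval 16.3 to 17.4%). A further stretch of 14 peaks at Pou5f1 met the rule and was set apart because its background was high, which left 13426 other peaks.

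The study asked what c-Jun does in primed pluripotent cells and in their return to the naive state. c-Jun ChIP-seq was made in 2 mouse lines, the wild type EpiSC line and kEpiSCs, which carry a Klf4 transgene, with 2 ChIP and 2 input libraries for each. Both lines were grown without feeders in medium that held Activin A and bFGF at 20 ng/ml each, with no other treatment. One peak list per line was used, with 16166 peaks in EpiSCs and 6032 in kEpiSCs, so the peaks are not replicates, no spread between libraries could be given and no difference between lines was tested over samples.

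Klf4 in the kEpiSCs is driven by a CAG promoter according to the study's results, and its methods describe a lentiviral Klf4 vector with G418 selection. The study's cells carry an Oct4-GFP reporter, a transgene with sequence of the Pou5f1 locus. The strain label of the EpiSC samples is CBA/CaJ X C57BL/6J, whereas the study's methods give 129 females mated with OG2 males. The antibody field names c-Jun, whereas the protocol text of the same samples names H3K27ac. A peak list holds no expression values, so the cell type could not be checked against marker genes.

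c-Jun is a bZIP protein that binds DNA as a dimer with Fos, Jun or ATF family partners, and these dimers are known as AP-1. Their preferred site reads TGACTCA on 1 strand and TGAGTCA on the other. AP-1 responds to growth factor and stress kinases and often binds distal enhancers, and genes with strong cell type-specific control can have many such elements side by side. EpiSCs model the epiblast after implantation, and are held in the primed state by Activin and FGF signals.

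The AP-1 sites of the stretch at Bhlhe40 are shown first, since this stretch had more of them than any other when the central 200 bp of each peak was searched, 10 at 8 of its 14 peaks. For peaks narrower than 200 bp this window reaches past the peak, and the site counted for peak 10 lies just outside it. The 7 sites inside peaks between genes follow, on the plus strand of mm10 (sequence from GRCm38.p6), with the site in capitals and 17 bases on either side.
Bhlhe40 peak 4, chr6:108677101-108677141: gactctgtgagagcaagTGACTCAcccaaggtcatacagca
Bhlhe40 peak 4, chr6:108677159-108677199: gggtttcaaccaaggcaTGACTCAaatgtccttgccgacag
Bhlhe40 peak 6, chr6:108684591-108684631: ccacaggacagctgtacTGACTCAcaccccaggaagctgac
Bhlhe40 peak 8, chr6:108697533-108697573: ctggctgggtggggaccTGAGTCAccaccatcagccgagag
Bhlhe40 peak 9, chr6:108704451-108704491: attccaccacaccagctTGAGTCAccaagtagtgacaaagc
Bhlhe40 peak 11, chr6:108706047-108706087: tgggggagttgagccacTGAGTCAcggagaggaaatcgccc
Bhlhe40 peak 12, chr6:108709071-108709111: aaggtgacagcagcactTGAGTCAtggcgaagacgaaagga

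The next set comes from stretches at genes of the AP-1 family itself, Fosb, Fosl1 and Junb, again on the plus strand of mm10 with the AP-1 site in capitals. Windows of neighbouring sites in 1 peak can overlap.
Fosb peak 4, chr7:19316983-19317023: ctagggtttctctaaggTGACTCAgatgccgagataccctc
Fosb peak 6, chr7:19321655-19321695: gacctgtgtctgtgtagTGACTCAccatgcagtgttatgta
Fosb peak 8, chr7:19327331-19327371: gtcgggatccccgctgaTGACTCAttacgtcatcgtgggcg
Fosl1 peak 2, chr19:5430033-5430073: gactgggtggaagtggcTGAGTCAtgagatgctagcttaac
Fosl1 peak 3, chr19:5433524-5433564: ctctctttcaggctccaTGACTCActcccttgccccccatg
Fosl1 peak 3, chr19:5433546-5433586: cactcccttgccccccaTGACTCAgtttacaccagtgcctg
Junb peak 3, chr8:84985640-84985680: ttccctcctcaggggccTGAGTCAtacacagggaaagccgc
Junb peak 3, chr8:84985670-84985710: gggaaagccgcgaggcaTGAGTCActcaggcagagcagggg
Junb peak 3, chr8:84985734-84985774: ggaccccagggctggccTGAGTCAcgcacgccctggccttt

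The last set is from the 2 highest peaks of the stretch between Krt8 and Krt18, each with 2 sites, and is shown because this stretch had the second highest median fold.
Krt8 peak 1, chr15:102005454-102005494: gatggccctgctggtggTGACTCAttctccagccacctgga
Krt8 peak 1, chr15:102005580-102005620: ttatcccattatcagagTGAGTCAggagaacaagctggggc
Krt8 peak 3, chr15:102016296-102016336: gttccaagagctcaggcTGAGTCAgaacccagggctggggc
Krt8 peak 3, chr15:102016332-102016372: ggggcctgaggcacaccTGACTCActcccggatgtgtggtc

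The stretches held 4 to 16 peaks each, with a median of 5. There were 236 stretches of 4 peaks, 134 of 5 and 149 of 6 or more, of which 31 had 9 or more. They spanned 1.65 to 60.8 kb with a median of 17.2 kb, and 9.80 Mb in all. Neighbouring peaks within a stretch lay a median of 3188 bp apart, and 484 of the 2207 gaps (21.9%) were under 1 kb. Just outside the rule were 599 stretches of 3 peaks, and the median over these of the stretch's own median fold was 6.35, against 6.51 for stretches of 4. The smallest gap in the list that did not join peaks was 12508 bp, and the largest that did was 12500 bp.

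**Figure D1:**
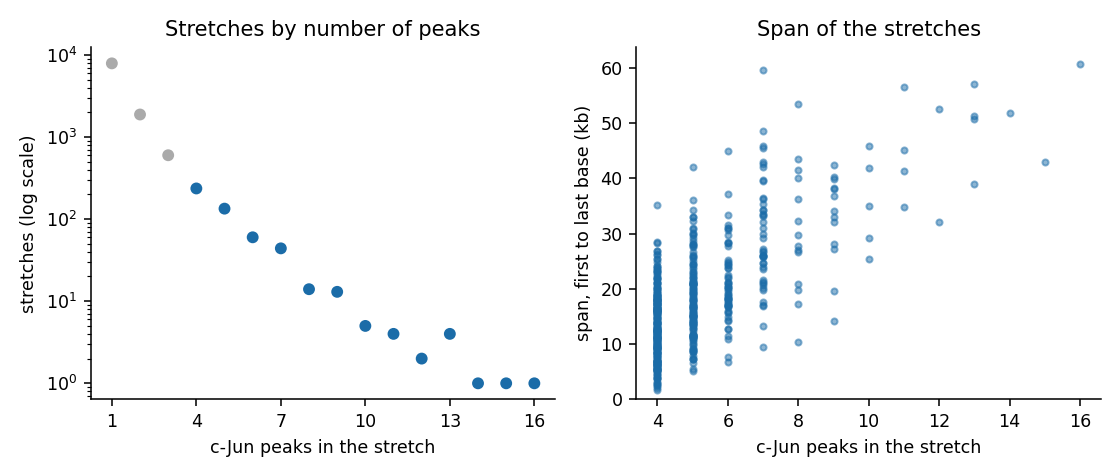
Left, number of stretches (log scale) against the number of EpiSC c-Jun peaks joined in a stretch, with stretches of 4 or more in blue and smaller ones in grey. Right, span in kb of each of the 519 stretches against its number of peaks. Stretches of 4 peaks were the most numerous of the blue points (236), and the stretch with most peaks (16) was also the longest (60.8 kb).

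Stretches were found on 19 chromosomes. Members made up 11.1% of the EpiSC peaks of chromosome 16 and 20.8% of those of chromosome 2, the lowest and highest autosomal shares. Chromosome X had 96 EpiSC peaks and no stretch.

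The member peaks were of ordinary height. Fold is the ratio of ChIP to local background at the summit of a peak, as the peak caller gives it, with 1 added to both. Its median was 6.35 in the members (quartiles 5.04 and 8.25, range 2.71 to 27.4) and 6.16 in the other peaks (quartiles 5.04 and 7.94, range 1.57 to 30.8). The reads at the summit, solved from the fold and the p-value, had a median of 10 in both, so single peaks rest on few reads. Members were wider, with a median of 218 bp against 184 bp. Fold and width come from the same list that chose the members and are given as a description.

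The longest stretch, with 16 peaks over 60.8 kb of chromosome 6, lay downstream of and within Cd9, which encodes a tetraspanin of the cell surface (chr6:125407516-125468270). Of its peaks 14 were between genes and 2 in Cd9 introns, and its highest peak had a fold of 14.6. Next came 15 peaks within Sfi1, which encodes a centrosome protein, where the background was high (described further on). The 14 peaks at Bhlhe40, a gene for a basic helix-loop-helix repressor, covered 51.8 kb (chr6:108658390-108710197). They ran from 1953 bp before to 49508 bp beyond its transcription start site (TSS), and folds went from 3.81 to 11.6 with a median of 6.86.

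Stretches of 13 peaks were found at 4 places. The first was at Epha2, which encodes an ephrin receptor. The next lay in introns of Dlgap1, for a synaptic scaffold protein, and its nearest TSS was that of Tgif1, 107 kb away. The other two were at Dusp14 and Synrg, of which Dusp14 encodes a MAP kinase phosphatase, and in introns of Bcar3, for an adaptor of integrin signalling. Median folds of these 4 ranged from 6.16 at Bcar3 to 7.15 at Epha2. Sik3, a kinase gene, and Pacsin2, for a membrane-bending protein, had 12 peaks each. Among the stretches of 11 peaks were those at Grhl3, an epithelial transcription factor, at the keratin genes Krt16, Krt17 and Krt42, and at Xirp1 and Csrnp1.

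**Figure D2:**
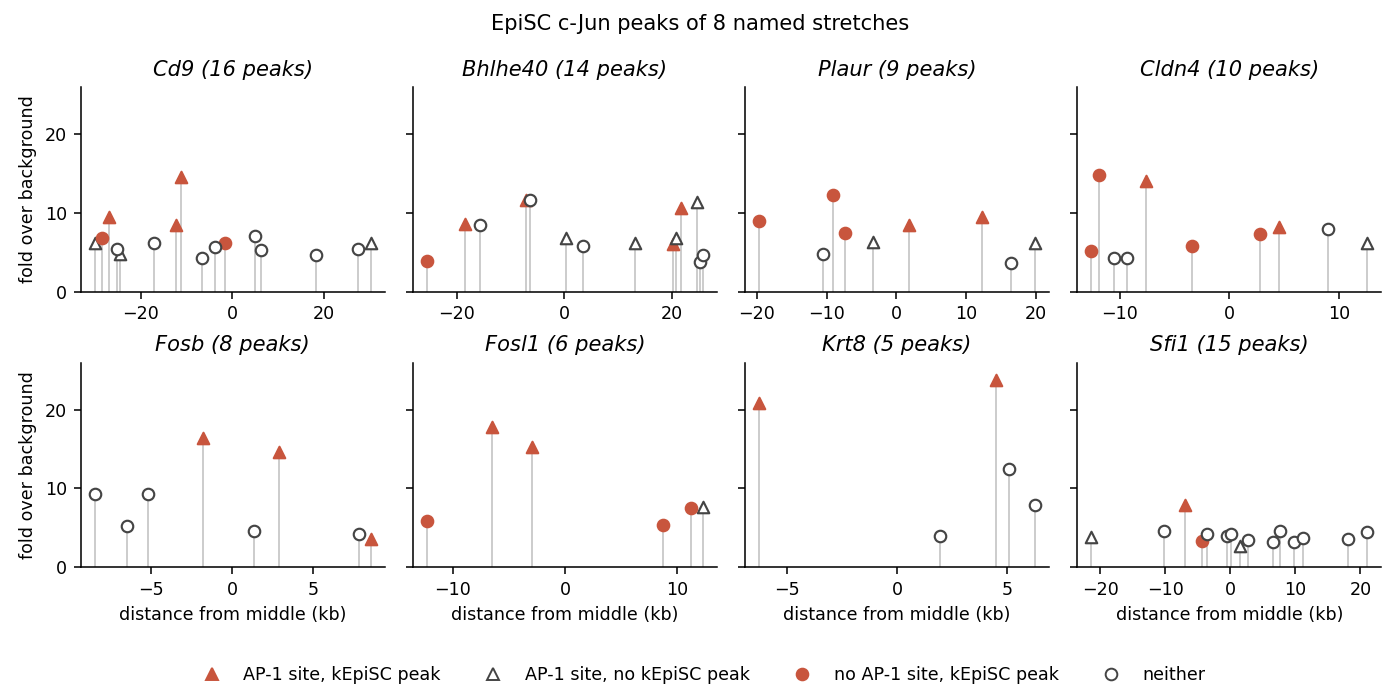
Fold over the local background of each EpiSC c-Jun peak (y axis) against its distance in kb from the middle of the stretch (x axis) in 8 named stretches. Triangles mark peaks with an AP-1 site, circles those without, and filled symbols are peaks overlapped by a kEpiSC peak. The peaks of Krt8 reached 23.8, whereas those of Sfi1 stayed between 2.71 and 7.90.

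The kEpiSC list was not used by the rule. A kEpiSC peak overlapped 33.8% of the members (32.0 to 35.6%, 921 of 2726), against 28.3% of all EpiSC peaks and 27.1% of the other peaks (26.4 to 27.9%, 3641 of 13426). Peaks of higher fold were overlapped more often, so the EpiSC peaks were put in 10 groups of equal size by fold. Members had the larger share in 9 of 10 groups. The other peaks, weighted to the folds of the members, gave 29.1%. In the group of highest fold 83.1% of members (78.8 to 86.7%) and 76.9% of other peaks (74.5 to 79.1%) were overlapped, and in the lowest group 14.5% (10.8 to 19.3%) and 12.1% (10.5 to 14.0%). The intervals cover counting error only, the peaks of a stretch are neighbours rather than independent samples, and the difference was not tested. Members were wider as given above. With summits within 100 bp as the measure the shares were 29.3% of members and 23.9% of other peaks.

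**Figure D3:**
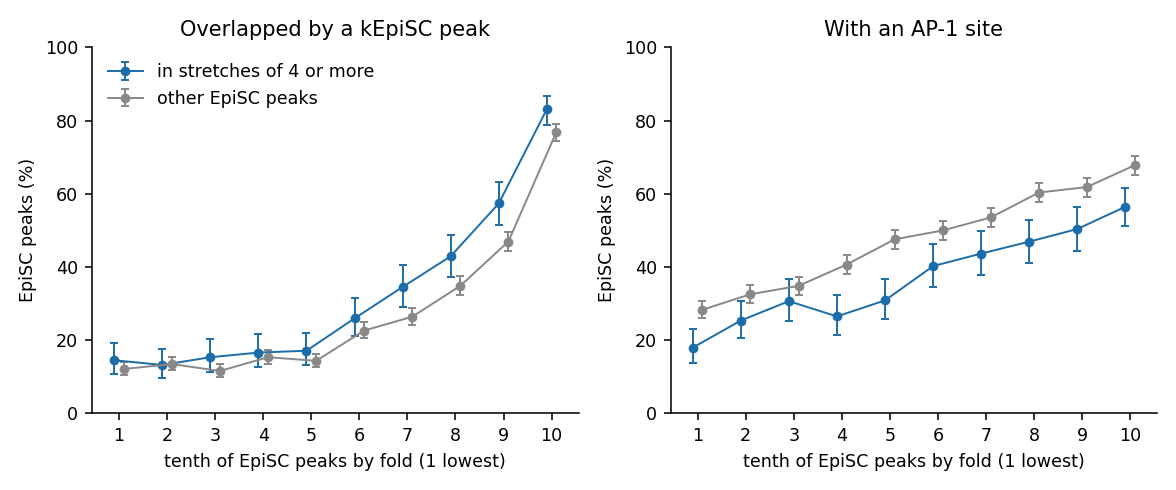
Share in percent of EpiSC peaks overlapped by a kEpiSC peak (left) and with an AP-1 site (right) in each of 10 groups of EpiSC peaks by fold, lowest to highest. Blue points are peaks in stretches of 4 or more, grey points all other peaks, and bars 95% Wilson intervals. Members lay above the other peaks in 9 of 10 groups for kEpiSC overlap and below them in 10 of 10 for the AP-1 site.

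At least 1 peak was overlapped in 448 of the 519 stretches (86.3%), and 71 stretches had none. In 162 stretches (31.2%) 50% or more of the peaks were overlapped. All peaks were overlapped in 6 stretches, those nearest to Smndc1 (6 peaks), Mrpl33 and Sipa1l2 (5 each), and Pfkfb3, Nfyb and Proser2 (4 each). Within a stretch the overlap went with the strength of the peak, ranked here by the q-value of the peak caller rather than by fold. The strongest peak of each stretch was overlapped in 355 of 519 cases (68.4%, 64.3 to 72.3%) and the weakest in 68 (13.1%, 10.5 to 16.3%). Where both lines had the peak, the median fold was 8.47 in EpiSCs and 7.78 in kEpiSCs, on scales that were set separately.

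Joined by the same rule, the kEpiSC list gave 56 stretches besides the one at Pou5f1, with at most 8 peaks. The kEpiSC list is also the shorter, with 6032 peaks. Of these 56, 51 (91.1%) overlapped an EpiSC stretch, each a different one of the 519. The 2 largest in kEpiSCs, with 8 peaks each, were nearest to Dusp14 and Smndc1, where EpiSCs had 13 and 6. Itgav had 7 in both lines. The 5 kEpiSC stretches with no EpiSC counterpart were nearest to Deptor, Lgals3, Abr, Ano6 and Map2k2. Inside the EpiSC stretches lay 1003 kEpiSC peaks, of which 83 (8.28%) met no EpiSC peak.

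The AP-1 site was looked for on either strand, in the 200 bp around the middle of each peak. It was present in 37.6% of the members (35.8 to 39.4%, 1024 of 2726), against 45.9% of all EpiSC peaks and 47.6% of the other peaks (46.8 to 48.4%, 6390 of 13426). Windows of the same length were taken 2 kb to either side, 2 for each peak. The site was present in 4.99% of these windows for members and 3.83% for other peaks, as shares of windows rather than of peaks. The windows were not kept clear of other peaks, and members were chosen for near neighbours, a median of 3188 bp apart within a stretch. At the folds of the members, the other peaks gave 48.5%, and members had the smaller share in 10 of 10 groups by fold. Away from promoters the shares were 38.8% (36.9 to 40.7%) and 51.4% (50.5 to 52.3%). At promoters they were 15.9% (10.8 to 22.7%) and 16.3% (14.5 to 18.3%), with intervals that overlap. Peaks with 2 or more sites made up 4.51% of members and 8.95% of other peaks. Members were wider, so the fixed window can leave out more of a member peak. Over whole peaks the shares with a site were 46.7% of members and 51.9% of other peaks. These differences are descriptions and were not tested.

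The share with an AP-1 site was lower in larger stretches, from 49.7% of peaks that stood alone (48.6 to 50.8%) to 45.8% in pairs, 42.0% in stretches of 3 and 36.8% in stretches of 4 (33.7 to 39.9%). Beyond 4 peaks the intervals overlap, with 36.8% in stretches of 9 or more (31.7 to 42.1%). The kEpiSC overlap went the other way, from 24.8% of lone peaks (23.9 to 25.8%) to 33.7% in stretches of 4 (30.7 to 36.8%) and 34.6% in stretches of 9 or more (29.7 to 39.9%).

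**Figure D4:**
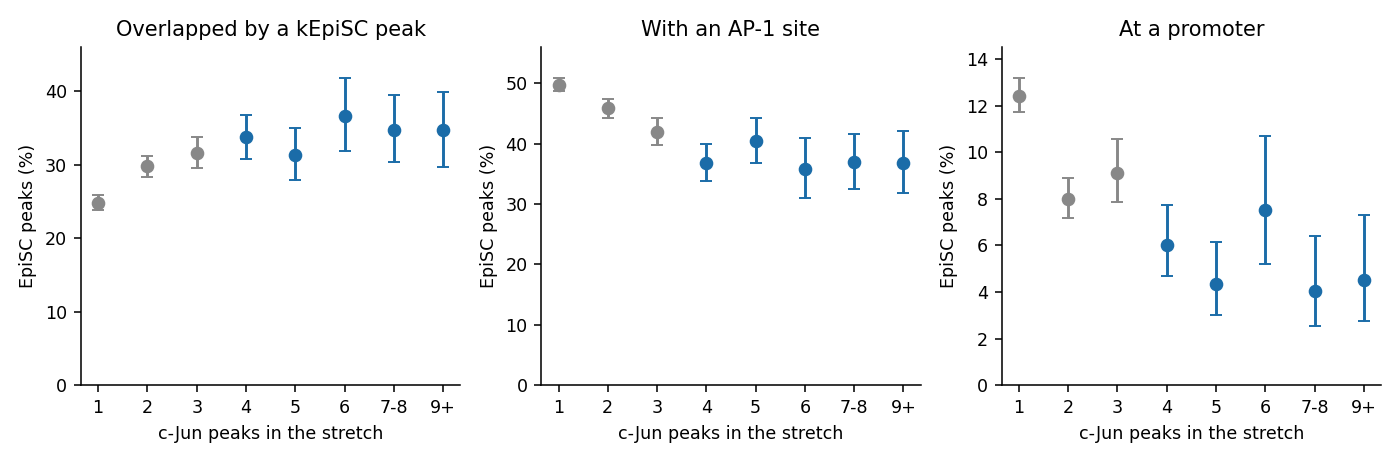
Share in percent of EpiSC peaks overlapped by a kEpiSC peak, with an AP-1 site, and at a promoter (y axes, each from 0), against the number of peaks in the stretch. Blue points are stretches of 4 or more, grey points smaller ones, and bars are 95% Wilson intervals. Lone peaks had the lowest kEpiSC share (24.8%) and the highest AP-1 share (49.7%).

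The AP-1 site and the kEpiSC overlap were found together in members as in other peaks. Of members with a site 46.3% were overlapped (43.3 to 49.4%, n = 1024 peaks), and of those without 26.3% (24.2 to 28.4%, n = 1702 peaks). In the other peaks these shares were 34.9% (33.7 to 36.04%) and 20.1% (19.2 to 21.0%). Members were thus overlapped more often than other peaks with and without a site. The median fold was also higher with a site, 7.28 against 5.93 in members.

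In all, 1155 AP-1 sites were spread over 458 of the 519 stretches (88.2%), 333 stretches had at least 2 peaks with a site, and 61 had none. Every peak had a site in 7 stretches. Ranked by q-value, the strongest peak of a stretch had a site in 51.8% of cases (47.5 to 56.1%) and the weakest in 23.7% (20.2 to 27.5%). After the 10 sites at Bhlhe40, the stretches with most were those nearest to Pacsin2, Ptges and Utrn, with 8 each, and then those nearest to Cd9, Tgif1 and Cyb5r3, with 7 each. Utrn encodes utrophin, which links actin to the cell membrane, and Ptges a prostaglandin synthase.

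Other sequences were searched in the same 200 bp, each on both strands. The cyclic AMP response element (TGACGTCA), bound by ATF and CREB dimers, was in 1.54% of members (1.14 to 2.08%) and 2.26% of other peaks (2.02 to 2.52%). The TEAD motif ACATTCC was in 6.02% and 5.86%, against 2.64% and 2.65% in the windows 2 kb away. The octamer ATGCAAAT, bound by Oct4, was in 1.58% and 1.30%, with 1.06% and 1.21% in those windows. The Esrrb motif TCAAGGTCA was in 1.54% and 1.27%, and the Klf motif GGGTGTGGC in 1.25% and 0.96%. The Sox motif ACAAAGG was in 5.72% and 6.00%, and the E-box CACGTG in 4.99% and 4.30%. In the windows 2 kb away the cyclic AMP response element had 0.07% for members and 0.12% for other peaks. There the Esrrb motif had 0.59% and 0.61%, and the Klf motif 0.70% and 0.51%. The Sox motif had 4.60% and 3.97% in those windows, and the E-box 3.23% and 2.96%. For each of these motifs the intervals of members and other peaks overlap. A match describes the letters and does not show binding.

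Members lay at promoters, from 1000 bp before to 100 bp after a TSS, in 5.32% of cases (4.54 to 6.23%, 145 of 2726). This compares with 9.84% of all EpiSC peaks and 10.7% of the other peaks (10.2 to 11.3%). Introns held 44.8% of members and 43.9% of other peaks, and 45.8% (44.0 to 47.7%) and 40.5% (39.6 to 41.3%) were between genes. GC content in the central window (median 50.5% and 50.0%) and repeat content (mean 11.5% and 11.2%) were close. Of the 519 stretches 118 (22.7%) had a promoter peak and 25 had 2 or more, while 136 lay wholly in introns and 140 wholly between genes. The middle of a stretch was a median of 21.6 kb from the nearest TSS, and over 100 kb away in 42 stretches.

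A protein-coding gene was counted as at a stretch when its body met the stretch or a TSS lay within 10 kb. This held for 476 of 21000 genes (2.27%), with a median gene length of 34.6 kb against 16.7 kb for all of them. No such gene was found for 142 stretches, 291 had 1 and 86 had more. The lists below are described by counts beside the 2.27%, and no list was tested.

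Among 27 genes for AP-1 proteins and related bZIP factors, 7 were at a stretch (25.9%): Junb, Fosb, Fosl1, Atf1, Atf3, Mafk and Bach1. The median length in the list was 11.1 kb, shorter than that of all genes. Jun itself, Fos, Fosl2 and Jund were at none. These 7 stretches had 43 peaks, of which 20 were overlapped in kEpiSCs and 19 had an AP-1 site.

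Fosl1, which encodes the dimer partner Fra-1, had 6 peaks with folds of 5.82, 17.8, 15.3, 5.29, 7.53 and 7.57 over 24.8 kb (chr19:5424099-5448903). The 5 first peaks were overlapped in kEpiSCs. The 2 highest carry the 3 sites printed above, and 1 peak lay at the Fosl1 promoter, 23 bp before its TSS. At Fosb the 8 peaks (chr7:19310180-19327407) ran upstream from a promoter peak of fold 9.29, and the highest had 16.4 and 14.6. These 2 and the weakest, of fold 3.54, were the 3 overlapped in kEpiSCs and the 3 with an AP-1 site.

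At Junb the 5 peaks (chr8:84976409-84990631) had folds of 3.54, 3.28, 10.8, 6.86 and 3.55. The highest, with the 3 AP-1 sites printed above, was the only one overlapped in kEpiSCs. Its stretch had a median background 2.74 times that of all EpiSC peaks. Atf3, a stress-induced partner, had 4 peaks with folds of 6.02, 10.4, 8.32 and 12.3, and the last 3 were overlapped. Its promoter peak, with 28 reads, had no AP-1 site in the central window, which does not reach the summit of this peak.

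Among genes known as AP-1 targets or immediate early genes, Plaur, Itga5, Sgk1, Krt8 and Krt18 were at a stretch. Krt8 and Krt18, the keratin pair of simple epithelia, shared 1 stretch of 5 peaks (chr15:102005359-102018287). Its folds of 20.8, 3.95, 23.8, 12.5 and 7.94 gave a median of 12.5, and the 2 highest, with the 4 sites printed above, were the 2 overlapped in kEpiSCs. At Plaur, the urokinase receptor gene, 9 peaks from the neighbour Irgc1 into Cadm4 had folds of 3.70 to 12.4, and 5 were overlapped. Sgk1, a serum-induced kinase gene, differed from these. It had 3 of its 5 peaks at its promoters, folds of 3.70 to 6.12, no AP-1 site and no overlap in kEpiSCs.

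Genes of cell junctions were at a stretch in 6 of 23 cases (26.1%): Cdh1, Ctnna1, Dsp, Pkp4, Cldn4 and Ajuba. The list's median gene length was 58.2 kb. Cldn4, a tight junction claudin, had 10 peaks over 25.3 kb (chr5:134942116-134967435) with folds from 4.23 to 14.8, and 6 were overlapped. Its promoter peak had a fold of 14.1 and 2 AP-1 sites. Cdh1, which encodes E-cadherin, had 4 peaks in introns, with folds of 7.06, 11.7, 7.85 and 12.8, of which all but the one of 7.85 were overlapped. Dsp, the desmoplakin gene, had 8 peaks with 5 overlapped, whereas none of the 6 at Ctnna1, for alpha-catenin, was.

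Of 38 genes of the actin cytoskeleton and adhesion, 6 were at a stretch (15.8%): Actn1, Vcl, Myh9, Cdc42, Pxn and Itgav. The list's median gene length was 31.7 kb. The 28 peaks of these stretches included 16 with an AP-1 site (57.1%) and 13 overlapped in kEpiSCs. Vcl, which encodes vinculin, had a site in each of its 4 peaks. Itgav, an integrin subunit gene, had 7 peaks with folds of 3.60 to 10.5, 6 of them overlapped. Of 18 genes of the Hippo pathway and YAP targets, 5 were at a stretch (27.8%): Ccn1, Tead1, Wwtr1, Ajuba and Wwc1. The median gene length of this list was 45.9 kb. Tead1, for a DNA-binding partner of YAP, had 2 stretches, of 6 and 4 peaks. Of these Hippo peaks, 7 of 29 had an AP-1 site (24.1%) and 10 were overlapped.

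Of 30 genes of the naive state, 4 were at a stretch (13.3%): Tbx3, Pecam1, Jam2 and Manba, with 23 peaks of which 6 were overlapped. Nanog, Esrrb, Zfp42, Dppa5a and Klf4 were at none. The median gene length of this list was 11.3 kb. Tbx3, a transcription factor of naive cells, had 7 peaks with a median fold of 6.16. One was at its promoter, and 6 lay upstream of it in introns of Tbx3os1. None of 29 genes of the primed state was at a stretch (0 of 29), nor any of 18 of FGF and ERK feedback. The median gene lengths of these lists were 7.37 and 15.3 kb. In lists of this size 0 is near the 2.27% of all genes, so no contrast with the naive list is drawn. Of 13 genes used in both states Mybl2 was at a stretch, beside Pou5f1 in the stretch set apart. Of 22 genes of Activin, Nodal and TGF-beta signalling, Tgif1 and Pmepa1 were (9.09%). None of 6 feeder fibroblast markers or 7 primitive endoderm markers was.

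The highest median folds were found in the stretches nearest to Pfkfb3 (12.8), Krt8 (12.5), Mrpl33 (11.1), Hand1 (10.6) and Pcolce2 (10.5). The one nearest to Mrpl33 lay in introns of Rbks, and the peaks nearest to Hand1 were between genes, 79913 to 85930 bp from its TSS. The 4 peaks nearest to Pfkfb3, a gene of glycolysis control, lay 79.1 kb beyond its TSS with no gene within 10 kb. Their folds were 12.2, 13.4, 9.91 and 18.8 in EpiSCs and 14.5, 9.18, 6.45 and 16.4 in kEpiSCs. Near Smndc1, a splicing factor gene, all 6 peaks had a kEpiSC peak, and the fourth had the highest fold of any member, 27.4, with 12.1 in kEpiSCs. Promoter peaks were most numerous at Xirp1 and Csrnp1 and at Sgk1, with 3 each. Outside the rule, 3 of the 599 stretches of 3 peaks were named because their median folds were the highest, so their height follows from that choice. They lay near Pbp2 (18.5), in Baiap2 (13.9) and in Zfpm2 (13.7).

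The background was solved with the reads and set against its median over all EpiSC peaks. The median ratio over the stretches was 1.06, and 10 of the 519 had a median background over 2 times as high, nearest to Sfi1, Cirbp, Socs3, Btbd9, Junb, Ywhag, Prss56, Vcl, Abtb2 and Lrrc74a, the last 71.3 kb away. Sfi1 had the highest, 5.39 times. Its 15 peaks (chr11:3136916-3179880) had a median fold of 3.87, 13 were in introns, and 2 were overlapped in kEpiSCs. Without these 10 stretches the remaining 2671 members had shares of 33.7% overlapped, 37.6% with an AP-1 site and 5.32% at promoters.

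The stretch at Pou5f1, the gene for Oct4 (chr17:35498972-35515011), was read on its own. Its 14 peaks covered 16040 bp, from 6630 bp before the TSS through the gene and into Tcf19. Relative to the median over all EpiSC peaks, its background was 8.21 to 29.5 times as high (median 10.6), and folds were 2.08 to 7.97 with a median of 3.97. The kEpiSC list had 13 peaks in the same place and overlapped 11 of the 14, and 2 of the 14 had an AP-1 site, against 37.6% of the members. Both lists thus had the stretch. The part of the Oct4-GFP transgene in these values was not tested.

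**Figure D5:**
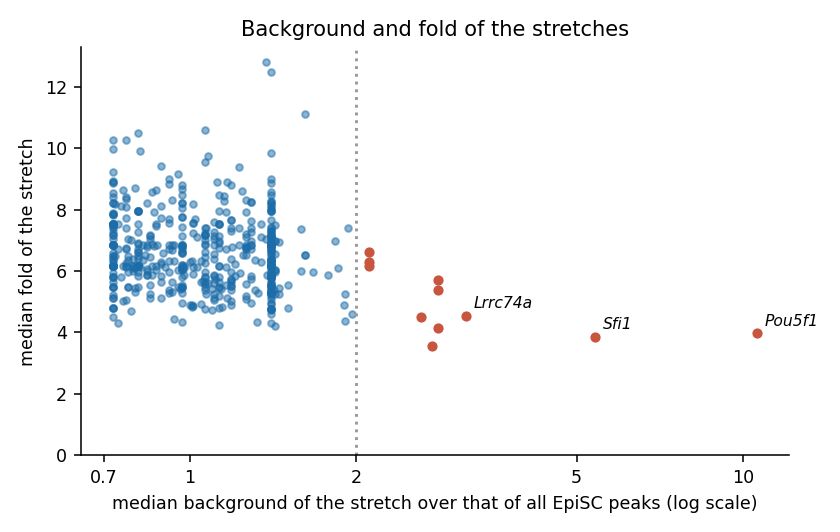
Median fold of each stretch (y axis) against its median background relative to the median of all EpiSC peaks (x axis, log scale). Blue points are stretches at or below 2 (dotted line), red points the 10 above it and the stretch at Pou5f1, which was set apart. Pou5f1 lies at 10.6 and Sfi1 at 5.39, with median folds of 3.97 and 3.87.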

How the data were processed

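c-Jun ChIP and input libraries of EpiSCs and kEpiSCs (2 of each, 8 in all) came from cells fixed in 1% formaldehyde for 15 min and sheared to 100 to 500 bp, and the ChIP libraries were precipitated with 2 µg of antibody. Reads were paired, of 75 bp in the paper and 50 bp in the labels. Bowtie2 was used by the authors for alignment to mm10, only uniquely mapped reads were kept, and MACS2 was run with its defaults. Other tools in the submitters' processing notes are bcl2fastq, SAMtools and bedtools. Versions were not given in the sources used here. Whether each list pools both replicates was not stated in words, and library depths were not analysed here.

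The authors deposited for every peak a score made from the q-value, a fold (ratio) over the local background, the −log10 p-value and −log10 q-value, and the summit. Fold and p were solved together for the reads and background at the summit, within 0.01 in −log10 p for 100% of EpiSC peaks. Positions were compared with curated RefSeq transcripts and sequence of GRCm38.p6, the assembly of mm10. Overlaps needed 1 bp. Shares have 95% Wilson intervals.

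Members and gene lists were chosen with earlier results of these data known. Named stretches were the 12 with most peaks and the 5 with the highest median fold, kEpiSC share, AP-1 sites or promoter peaks. Also named were those at a gene of 12 lists or with a background over 2 times the median. Of the stretches of 3 peaks, the 3 with the highest median fold were named. A selection of all these is described. The count for the list of AP-1 targets and immediate early genes is not reported here. Naming of the 5 kEpiSC stretches that overlapped no EpiSC stretch, and of listed genes at no stretch, was decided after their values were seen. Joining, solving and the site search were tested on simulated data. Alternatives covered the gap, the number of peaks, the list, overlap, motif window, promoter and gene distance. Software was matplotlib 3.10.9, pandas 2.3.3, numpy 2.4.6, pysam 0.24.0 and scipy 1.17.1 under Python 3.11.15.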

Additional observations from a re-analysis of the deposited data

How the results depend on the processing

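How many stretches there are depends on the rule. In place of 519 there were 228 with gaps of at most 5 kb, 814 with 25 kb, 1118 with 3 or more peaks, 283 with 5 or more and 106 in the higher-scoring 50% of the list. The share of EpiSC peaks in stretches (16.9%) was then 6.44%, 30.7%, 28.0%, 11.02% and 6.10%, and 14.3% with peaks under 500 bp apart counted as 1. Genes at a stretch (476) came to 166, 1040, 945, 277 and 91, and to 975 with a TSS within 50 kb. The members' kEpiSC share (33.8%) was 36.3% at 5 kb, 53.8% in the higher-scoring 50%, 23.5% with an overlap of at least 50% of the peak and 29.3% by summits. Their AP-1 share (37.6%) was 40.1% at 25 kb, 46.9% in the higher-scoring 50%, 46.7% over whole peaks and 24.5% in the central 100 bp. Their promoter share (5.32%) was 4.03% at 5 kb, 6.92% at 25 kb, 6.83% with 3 or more peaks, 4.26% in the higher-scoring 50% and 15.0% for promoters from 5 kb before to 1 kb after a TSS. The other 26 of 56 values stayed within the interval, or within 1.5 times the count. Against other peaks taken the same way, members had the larger kEpiSC share and the smaller AP-1 and promoter shares under each alternative run. The AP-1 gap was smallest over whole peaks (46.7% and 51.9%), and the kEpiSC gap with an overlap of at least 50% (23.5% and 20.2%).

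No paired analysis was possible because a line contributed only 1 peak list, and leaving out a replicate was not run for that reason. The median of 10 reads at a summit limits the detection of weak peaks in and beside the stretches, and absence from the kEpiSC list does not show absence of binding.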
